A study of Mus musculus with 24 samples.

Results

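SIM-A9 microglial cells given AAV for 2 h were compared with the same cells given either of a pair of fluorescent dyes, Fura-2 and Di-2-ANEPEQ. The comparison set 9 of the study's 24 libraries against each other, 3 per group, taken by their treatment labels. The spread between libraries and the low-count filter were taken from all 24 libraries. Each dye group had equal weight, and all 13116 genes that passed a low-count filter were tested. SIM-A9 is a mouse microglial cell line, and the study asked how such cells respond to probes used in neuroscience. Besides AAV and the dyes it holds untreated cells (Control), used here as a second reference, and 4 other groups.

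AAV is an adeno-associated virus, used as a gene delivery vector. Fura-2 is a calcium indicator, and Di-2-ANEPEQ is a dye whose fluorescence follows membrane voltage. The labels give neither the serotype, cargo or dose of the AAV nor the concentration of the dyes. All wells held 270 uL of serum-free medium from 2 h before the experiment, and 30 uL of a 10x sample was added to them 2 h before RNA extraction. The labels number the 3 libraries of a group but do not say that they came from separate cultures, so p-values measure the spread between these libraries, which may be technical.

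AAV binds cell-surface glycans and the receptor encoded by AU040320 (also called Kiaa0319l), is taken up by endocytosis and releases its single-stranded DNA genome in the nucleus. In immune cells its capsid can be sensed by Tlr2 and its DNA by the endosomal receptor Tlr9, which signal through Myd88 to NF-kB and interferon regulatory factors. Its genome can also be read by the cell as damaged DNA, and p53 targets are among the genes known to answer it.

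No gene passed the test in AAV against the dyes. With edgeR's quasi-likelihood test and Benjamini-Hochberg adjustment, 0 of 13116 genes were called at an adjusted p under 0.05 (0% of the genes tested), and the smallest adjusted p was 0.0759. The nominal p, before adjustment, was under 0.05 for 1447 genes, 769 of them higher in AAV (5.86% of all genes) and 678 lower (5.17%). With the length and GC trends removed this split was 995 and 473. All 3 AAV libraries lay above all 6 dye libraries for 345 genes (2.63%) and below them for 341 (2.60%). The median absolute log2 fold change was 0.06, as large as the median standard error (SE) of 0.06. For 10593 genes, 80.8% of those tested, the 95% interval lay within 1.5-fold in both directions. DESeq2's Wald test on the same genes called 44, and the count ranged from 0 to 76 over the processing alternatives. The largest, 76, came without the low-count filter, and 75 of those genes were among the 13116. A fit of the 9 libraries only called 19, and removal of the length and GC trends called 11. The 6 genes Hmgcs1, mt-Nd2, mt-Nd4, Ranbp1, Tfg and Txnip were called higher in AAV in each of these 4 settings.

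**Figure D1:**
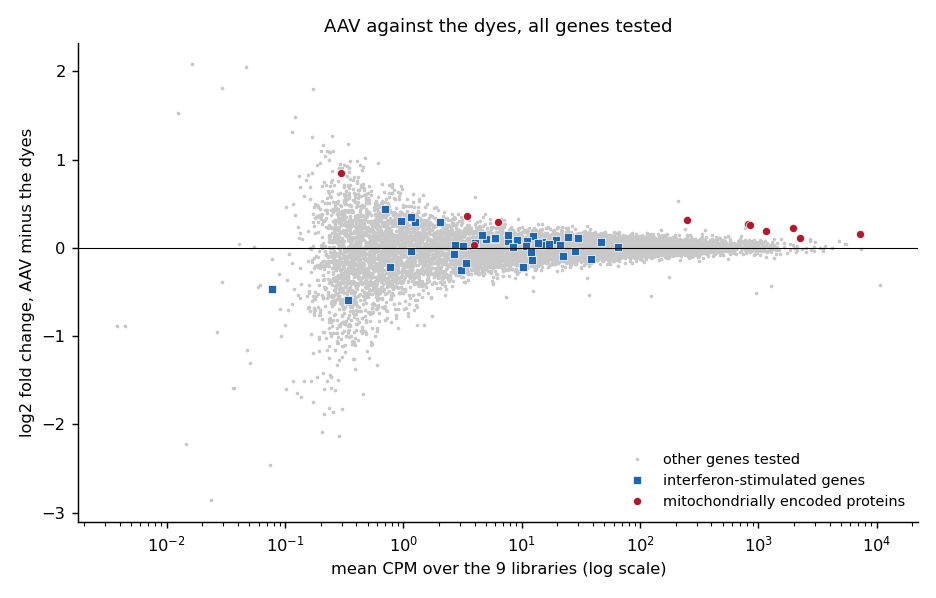
Log2 fold change of AAV minus the equal-weight mean of Fura-2 and Di-2-ANEPEQ (vertical axis) against mean CPM (counts per 1000000 counts of a library) over the 9 libraries (horizontal axis, log scale), 1 point per gene tested. The 11 mitochondrially encoded protein genes (red) all lie above 0, and the 42 interferon-stimulated genes (blue) lie on both sides.

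The libraries held 26276385 to 28971379 counts in AAV, 19805597 to 25778174 in Fura-2 and 23163898 to 29259221 in Di-2-ANEPEQ. Microglial markers summed to 3110 to 3251 CPM in the 9 libraries, of which Cd68 averaged 849 CPM and Csf1r held 507 to 553. Other members were low: Tmem119 (3.24 to 4.59 CPM), P2ry12 (1.63 to 3.12), Fcrls (0.639 to 1.16) and Aif1 (3.41 to 5.17). Cx3cr1 stood at 11.8 to 15.2 CPM. Sall1, a transcription factor that marks microglia in the brain, had at most 2 counts in any library. Markers of astrocytes, fibroblasts, lymphocytes and neutrophils summed to at most 0.614 CPM in any of them. Of the other markers, the endothelial gene Kdr averaged 135 CPM and the oligodendrocyte gene Cnp 31.7 CPM, and the summed levels of both lists overlapped between AAV and the dyes. The 8 neuronal markers summed to 0.542 to 1.10 CPM in AAV and 0.323 to 0.639 CPM in the dyes, with Snap25, Syt1, Nefl and Gad1 at 0 in all 9 libraries. The 1 of them that passed the filter, Map2, was higher in AAV at a nominal p under 0.05, by 1.01 on the log2 scale (edgeR adjusted p 0.289). Gm42418, a transcript that carries ribosomal RNA sequence, stood at 14946 to 16705 CPM in Fura-2, 5807 to 12146 in AAV and 6387 to 10485 in Di-2-ANEPEQ. The column names of the 3 libraries of a group end in consecutive sample numbers. What these numbers record is not given in the sources used here, and anything that follows them cannot be told apart from the treatment.

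The 2 genes with the smallest p were mitochondrial. The mitochondrial genome is transcribed as long precursors that are cleaved into ribosomal RNAs, transfer RNAs and 13 messenger RNAs for respiratory chain proteins. mt-Nd4 and mt-Nd2, which encode complex I subunits, lie on the mitochondrial chromosome of GRCm38 at 10167 to 11544 and 3914 to 4951. mt-Nd4 stood at 977, 925 and 963 CPM in AAV, 861, 766 and 894 in Fura-2 and 765, 687 and 803 in Di-2-ANEPEQ. All 3 AAV libraries were above all 6 dye libraries. Control libraries held 877, 794 and 807 CPM, also below AAV. Those of DiBASC2, another dye of the study, held 956, 837 and 826 CPM and reached into the AAV range. The log2 fold change against the dyes was 0.26 ± 0.05 (SE), with an adjusted p of 0.0759 by edgeR. mt-Nd2 stood at 974, 883 and 881 CPM in AAV, 852, 705 and 851 in Fura-2 and 712, 678 and 764 in Di-2-ANEPEQ, again without overlap, and differed by 0.27 ± 0.05 (edgeR adjusted p 0.0759). Its Control libraries, at 889, 789 and 806 CPM, and its DiBASC2 libraries, at 942, 810 and 784, reached into the AAV range.

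Of the 13 mitochondrially encoded protein genes 11 passed the filter. The log2 fold change was above 0 for all 11, with a median of 0.26 against 0.00 over all genes tested. 10 of the 11 were higher at a nominal p under 0.05, where 5.86% of all genes were. By edgeR on all 24 libraries, with the low-count filter and no trends removed, 0 were called. Without that filter 6 were called, and 4 in the fit of the 9 libraries only. DESeq2 called 4, and removal of the length and GC trends called 3. The other processing alternatives that left out no library called 0. Leaving out 1 library at a time gave 0 to 3. In mt-Nd4, mt-Nd2 and mt-Co1 the AAV libraries were all above the dye libraries. mt-Co1, a catalytic subunit of complex IV, averaged 7822 ± 147 CPM (SD, n = 3) in AAV, 7118 ± 586 in Fura-2 and 6936 ± 207 in Di-2-ANEPEQ, and differed by 0.15 ± 0.04. mt-Cytb, the complex III subunit, differed least among the abundant members, by 0.11 ± 0.05. mt-Nd6, which is encoded on the opposite strand, stood at 355, 216 and 287 CPM in AAV. Replicate 2 of AAV was below every dye library (228 to 261 CPM) except Di-2-ANEPEQ replicate 2 (195 CPM). mt-Co3 was the exception to the low p-values, at 3.996 ± 0.419 CPM in AAV, 4.33 ± 0.228 in Fura-2 and 3.53 ± 0.0663 in Di-2-ANEPEQ, with a log2 fold change of 0.03 ± 0.11 that was −0.06 without AAV replicate 1. mt-Co2, mt-Co3, mt-Atp6 and mt-Nd3 averaged under 8 CPM in AAV, and mt-Atp8 and mt-Nd4l, which did not pass the filter, had at most 3 counts in any of the 9 libraries. Near-identical nuclear copies of the mitochondrial genome can share reads with these genes, and the values of these 6 are uncertain. mt-Nd4 and mt-Nd4l, mt-Nd5 and mt-Nd6, and mt-Atp6 and its neighbours also overlap, and whether the counting used strand is not given in the sources used here.

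The median log2 fold change of the 11 genes was 0.18 against Fura-2 and 0.35 against Di-2-ANEPEQ, comparisons that share the AAV libraries. It was 0.11 against Control. For mt-Nd4 the difference between the dyes was 0.16 (edgeR adjusted p 0.711), so that the larger value against Di-2-ANEPEQ is not shown to differ from that against Fura-2. Summed over the protein genes, the mitochondrial level was 15356 to 16379 CPM in AAV, 13066 to 15292 in Fura-2, 12934 to 14088 in Di-2-ANEPEQ, with 13892 to 15753 in Control. AAV lay just above the highest Fura-2 library and overlapped Control. It also overlapped DiBASC2 (14128 to 15816) and COOH SWCNT (14725 to 15502). By group mean, Di-2-ANEPEQ (13620) and Fura-2 (14359) were the lowest groups of the study and AAV (15795) the highest. In bulk RNA, fewer cells of a type and less RNA per cell cannot be told apart. The mitochondrial ribosomal RNA mt-Rnr2 differed from the dyes by 0.22 ± 0.06 and mt-Rnr1 by 0.12 ± 0.05 on the log2 scale. Of the nuclear-encoded subunits of the respiratory complexes 39 of 79 lay above 0, and the median was 0.00. At a nominal p under 0.05, 1 was higher and 7 were lower, where 5.86% and 5.17% of all genes were. The mitochondrial genes are poor in G and C, at 33.05% to 39.9% against a median of 49.4% for all genes tested, and the median log2 fold change of all genes, in 5 bins of GC content, went from 0.04 in the lowest to −0.03 in the highest. With the length and GC trends removed from each library, the median of the 11 was 0.23.

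**Figure D2:**
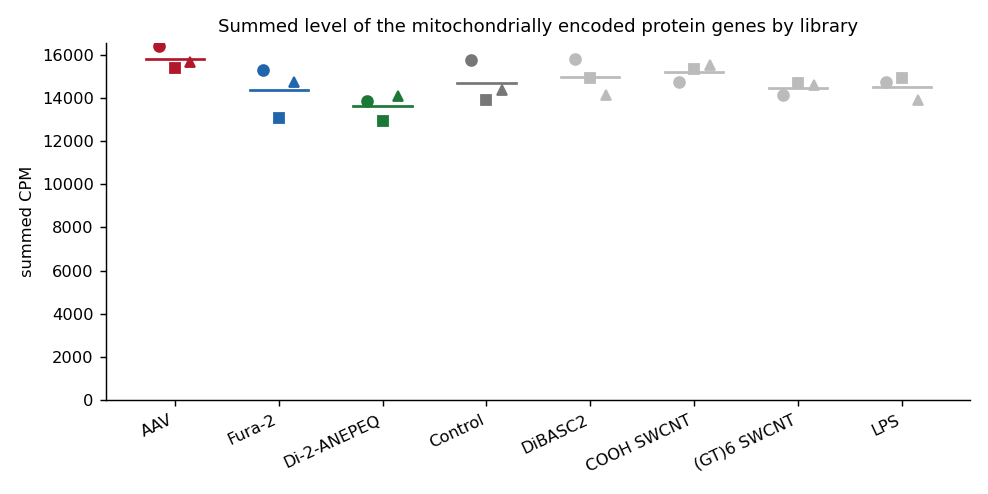
Summed CPM of the mitochondrially encoded protein genes (vertical axis) in each of the 24 libraries by group (horizontal axis), with replicates 1, 2 and 3 as circle, square and triangle and a line at the group mean. AAV libraries lie between 15356 and 16379 CPM, Di-2-ANEPEQ between 12934 and 14088, and Control between 13892 and 15753.

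Hmgcs1 was the only gene called against Fura-2 alone. It encodes the cytosolic HMG-CoA synthase, an early enzyme of cholesterol synthesis, and lies on chromosome 13 at 119690379 to 119708260. SREBP2, a transcription factor that is activated when membrane sterol is low, binds sterol regulatory elements near such genes. The Hmgcs1 promoter is shown because this is the 1 gene of the list in which that element's letters were found, and it opens with 250 bases before the annotated start. The sequence is RefSeq's, from build GRCm38.p6, plus strand, chr13:119690101-119690400, with TCACNCCAC in capitals.
Hmgcs1 promoter: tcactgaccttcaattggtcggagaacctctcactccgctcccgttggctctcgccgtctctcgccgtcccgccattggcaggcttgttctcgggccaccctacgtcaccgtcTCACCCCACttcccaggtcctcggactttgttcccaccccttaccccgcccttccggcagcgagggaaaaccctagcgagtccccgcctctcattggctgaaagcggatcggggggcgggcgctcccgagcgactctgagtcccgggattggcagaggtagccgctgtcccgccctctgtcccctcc
TCACNCCAC was searched on both strands. It was found in 408 of 32851 promoters of this length (1.24%) and in 1 of the 28 promoters held for 23 of the 34 sterol and fatty acid genes. A match describes letters only and is not a binding site, and Sqle had no promoter in the table.

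Hmgcs1 stood at 359, 359.6 and 347 CPM in AAV, 304, 296 and 308 in Fura-2, 344, 335 and 327 in Di-2-ANEPEQ, with 329.9, 302 and 309 in Control. Among these groups AAV was the highest and Fura-2 the lowest, and no AAV library overlapped a dye library. The DiBASC2 libraries, at 281, 275 and 284 CPM, were lower than Fura-2. Hmgcs1 overlaps the gene Gm48342, so that reads could be shared. Against both dyes the log2 fold change was 0.16 ± 0.03 (edgeR adjusted p 0.0759). It was 0.23 against Fura-2, where edgeR gave an adjusted p of 0.00435, and 0.08 against Di-2-ANEPEQ, with an adjusted p of 0.479. The dyes differed from each other by −0.15 (edgeR adjusted p 0.291). The 1 call is 0.00762% of the genes tested, and it was lost when AAV replicate 1, AAV replicate 2 or Fura-2 replicate 2 was left out. Against Control, Hmgcs1 was also higher in AAV (0.18, edgeR adjusted p 0.00386).

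Of 34 sterol and fatty acid synthesis genes 30 passed the filter, with a median log2 fold change of 0.03. The median was 0.06 against Fura-2, −0.01 against Di-2-ANEPEQ and 0.005 against Control. It was −0.09 for Fura-2 against Di-2-ANEPEQ. At a nominal p under 0.05, 7 were higher and 1 lower, where 5.86% and 5.17% of all genes were. The 7 were Hmgcs1, Sqle, Hsd17b7, Idi1, Insig1, Msmo1 and Cyp51, all of cholesterol synthesis or its feedback control. Sqle, which makes the first oxygen-dependent step, stood at 288, 298 and 289 CPM in AAV, 262, 265 and 263 in Fura-2 and 284, 278 and 283 in Di-2-ANEPEQ. Its AAV libraries were above every dye library, by 0.10 ± 0.03 on average (edgeR adjusted p 0.200). DESeq2 called Sqle (adjusted p 0.0176). The Control libraries of Sqle, at 289, 280 and 273 CPM, reached into the AAV range. AAV differed from Control by 0.06 (edgeR adjusted p 0.320). The lower one was Srebf1, whose product drives fatty acid synthesis genes, at −0.11 (adjusted p 0.249). Fasn (−0.01), Acaca (−0.02) and Acly (−0.02), enzymes of fatty acid synthesis, were near 0. Acsl4, which activates long polyunsaturated fatty acids and was not in the list, stood at 298, 275 and 273 CPM in AAV, 256, 248 and 254 in Fura-2 and 259, 251 and 259 in Di-2-ANEPEQ, with a log2 fold change of 0.15 ± 0.03 (edgeR adjusted p 0.0853).

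**Figure D3:**
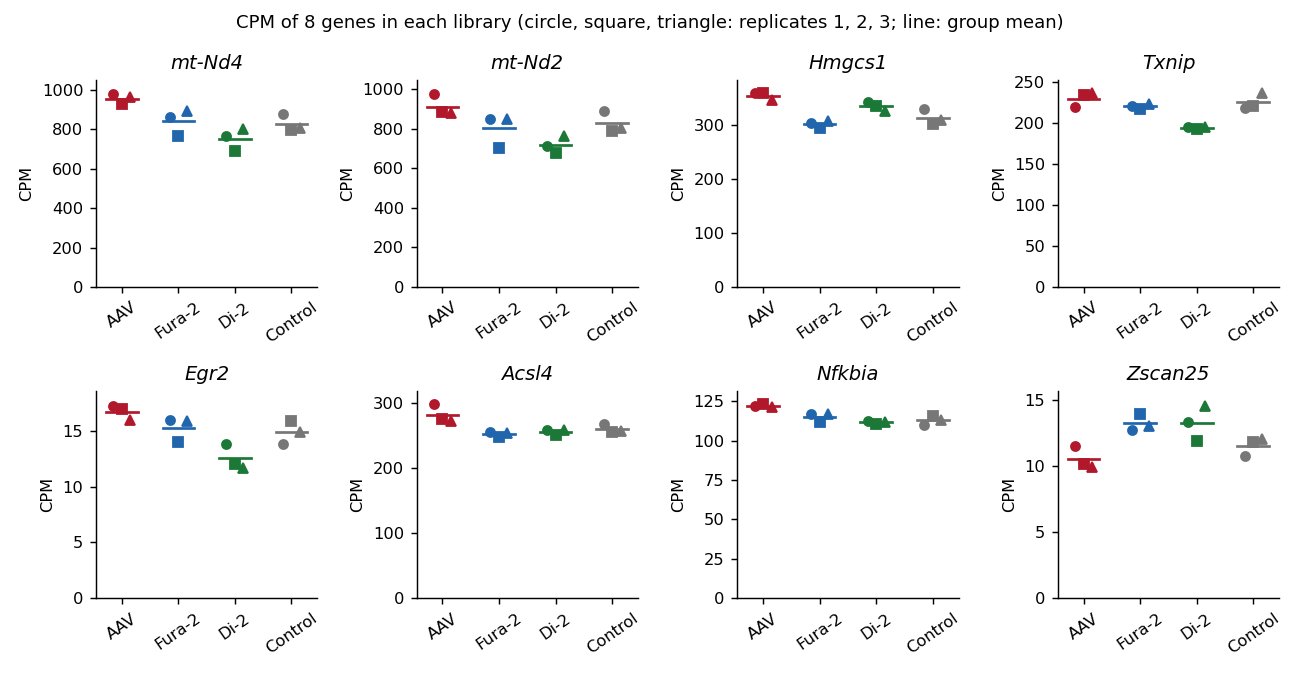
CPM (vertical axes, from 0) of 8 genes in each AAV, Fura-2, Di-2-ANEPEQ and Control library (horizontal axes), with replicates 1, 2 and 3 as circle, square and triangle and a line at the group mean. Hmgcs1 is lowest in Fura-2 (303 CPM), while mt-Nd4 (752 CPM), Txnip (194 CPM) and Egr2 (12.5 CPM) are lowest in Di-2-ANEPEQ.

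Against Di-2-ANEPEQ alone 8 genes were called, all higher in AAV (0.0610% of the genes tested): mt-Nd2, mt-Nd4, mt-Nd5, Txnip, Egr2, Sh3bgrl, Nabp1 and Pmaip1. The number was 0 without Di-2-ANEPEQ replicate 2, 1 without AAV replicate 1, 35 without AAV replicate 2, 13 without Di-2-ANEPEQ replicate 1 and 5 without Di-2-ANEPEQ replicate 3. Txnip, which encodes an inhibitor of thioredoxin and of glucose uptake, stood at 219, 233 and 236 CPM in AAV, 221, 217 and 223 in Fura-2, 195, 192 and 195 in Di-2-ANEPEQ, with 218, 220.4 and 236 in Control. Di-2-ANEPEQ was the low group, and AAV overlapped Fura-2 and Control. The log2 fold change was 0.24 against Di-2-ANEPEQ (edgeR adjusted p 0.00331) and 0.06 against Fura-2 (adjusted p 0.639).

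Among AAV, Fura-2, Di-2-ANEPEQ and Control, Egr2, an immediate early transcription factor, also had its lowest mean in Di-2-ANEPEQ. It stood at 17.2, 17.0 and 16.0 CPM in AAV, 16.0, 14.0 and 15.9 in Fura-2, 13.9, 12.1 and 11.7 in Di-2-ANEPEQ, with 13.8, 15.9 and 14.9 in Control. It was higher in AAV than in Di-2-ANEPEQ by 0.41 (edgeR adjusted p 0.00479) and differed from Fura-2 by 0.13 (adjusted p 0.575). Pmaip1, which encodes the BH3-only protein NOXA and is a p53 target, stood at 96.2, 90.2 and 91.4 CPM in AAV, 83.9, 83.9 and 87.2 in Fura-2, 79.5, 77.5 and 81.1 in Di-2-ANEPEQ, with 82.8, 80.4 and 81.4 in Control. Its AAV libraries were above all the others given here. The log2 fold change was 0.22 against Di-2-ANEPEQ (edgeR adjusted p 0.0401), 0.12 against Fura-2 (adjusted p 0.385) and 0.18 against Control (adjusted p 0.0177). Nabp1, which encodes a single-stranded DNA binding protein, averaged 29.5 ± 1.47 CPM in AAV, 26.6 ± 0.763 in Fura-2 and 23.2 ± 1.46 in Di-2-ANEPEQ (SD, n = 3).

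Fura-2 and Di-2-ANEPEQ, the reference groups, were also compared with each other. edgeR called 0 of 13116 genes (0%), with 825 at a nominal p under 0.05, and DESeq2 called 1. For Txnip the difference between the dyes was 0.19 on the log2 scale (edgeR adjusted p 0.177) and for Egr2 0.29 (adjusted p 0.351), neither of them called, so that for these genes the larger value against Di-2-ANEPEQ is not shown to differ from that against Fura-2. For Rsbn1l, Spred1, Tfg, C5ar1, Rasa1 and Zscan25 the dyes differed by at most 0.05.

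Of the 20 genes with an adjusted p under 0.1, named here after their values were seen, 17 were higher in AAV and 3 lower. No gene was below 0.1 with upper-quartile factors, with the dyes as 1 group, or without AAV replicate 1, AAV replicate 3, Di-2-ANEPEQ replicate 2 or Fura-2 replicate 2, and there were 7 without Di-2-ANEPEQ replicate 1 and 6 without Di-2-ANEPEQ replicate 3. The number was 116 without the low-count filter, 96 with DESeq2, 49 after removal of the length and GC trends and 43 in the fit of the 9 libraries only. Rasa1, which encodes a GTPase-activating protein that turns off RAS, stood at 125, 125 and 126 CPM in AAV, 114, 110.2 and 112 in Fura-2 and 117, 111 and 113 in Di-2-ANEPEQ. Spred1, which encodes another inhibitor of RAS to ERK signalling, stood at 168, 166 and 158 CPM in AAV, 153, 147 and 149 in Fura-2 and 149, 148 and 144 in Di-2-ANEPEQ. Neither gene overlapped between AAV and the dyes, and both log2 fold changes were 0.15 (edgeR adjusted p 0.0853). C5ar1, the receptor of the complement fragment C5a, averaged 65.2 ± 1.69 CPM in AAV, 58.5 ± 1.03 in Fura-2 and 57.0 ± 4.75 in Di-2-ANEPEQ. Tfg, which acts in export from the endoplasmic reticulum, averaged 72.4 ± 2.83, 65.2 ± 1.57 and 62.9 ± 0.896 CPM. The largest difference of the 17 was in H3f3a-ps1, a pseudogene of a histone H3.3 gene, at 0.58 ± 0.14. Its reads cannot be told apart with certainty from those of the parent gene.

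The largest difference among the 3 lower genes was in Zscan25. This gene, which encodes a zinc finger protein and lies on chromosome 5 at 145280500 to 145291278, stood at 11.5, 10.1 and 9.95 CPM in AAV, 12.7, 13.9 and 13.0 in Fura-2, 13.3, 11.9 and 14.5 in Di-2-ANEPEQ, with 10.7, 11.8 and 12.02 in Control. AAV was below every dye library but overlapped Control, and the log2 fold change was −0.33 ± 0.07 (edgeR adjusted p 0.0853).

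Genes of AAV entry showed no called difference. Of 42 entry and trafficking factors 40 passed the filter, and the median log2 fold change was 0.01. At a nominal p under 0.05, 5 were higher and 1 lower, where 5.86% and 5.17% of all genes were. The 95% interval lay within 1.5-fold for all 40. The receptor gene AU040320, on chromosome 4 at 126753544 to 126870070, stood at 20.7, 22.0 and 20.996 CPM in AAV, 20.5, 20.8 and 21.4 in Fura-2 and 21.8, 22.0 and 22.9 in Di-2-ANEPEQ. The gene overlaps Zmym4. The groups overlapped, with a log2 fold change of −0.02 and a 95% interval from −0.13 to 0.09. Gpr108, a membrane protein that AAV needs after uptake, differed by 0.03 (−0.05 to 0.10). The smallest p of the list was that of Ncl, nucleolin, at 0.08 ± 0.03 (edgeR adjusted p 0.344).

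Sensors and interferon-stimulated genes were also without a call. Of 35 nucleic acid sensing genes 33 passed the filter, with a median log2 fold change of 0.01. At a nominal p under 0.05, 3 were higher and 0 lower, where 5.86% and 5.17% of all genes were. Tlr9, the endosomal DNA receptor, stood at 19.7, 22.2 and 23.7 CPM in AAV, 18.7, 22.1 and 21.3 in Fura-2 and 21.8, 21.2 and 22.3 in Di-2-ANEPEQ, a log2 fold change of 0.04 (−0.10 to 0.19). Cgas, the cytosolic DNA sensor, differed by 0.02 (−0.07 to 0.10), and Tmem173, which encodes its partner STING, by 0.06 (−0.01 to 0.13). Tlr7, the endosomal RNA receptor, had the smallest p of the list. It averaged 128 ± 1.79 CPM in AAV, 112 ± 7.41 in Fura-2 and 121 ± 1.28 in Di-2-ANEPEQ, without overlap, and differed by 0.14 ± 0.04 (edgeR adjusted p 0.257).

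Of 45 interferon-stimulated genes 42 passed the filter. 0 were higher and 2 lower at a nominal p under 0.05, where 5.86% and 5.17% of all genes were, and 29 lay above 0 with a median of 0.05. The 95% interval lay within 1.5-fold for 34 of the 42. Isg15 stood at 3.03, 3.60 and 3.05 CPM in AAV, 3.06, 2.96 and 3.002 in Fura-2 and 2.47, 3.41 and 4.34 in Di-2-ANEPEQ, with a log2 fold change of 0.02 (−0.27 to 0.31). Cxcl10, a chemokine induced by interferon, differed by 0.10 (−0.10 to 0.30). Oas1a, which encodes an antiviral enzyme activated by double-stranded RNA, was 1 of the 2 with the lower values, at −0.12 ± 0.05 (edgeR adjusted p 0.383), and Stat2 the other, at −0.22 (adjusted p 0.388). Ifi44 at 0.842 CPM and Ifit1 at 1.43 CPM in AAV were too low for narrow intervals, which reached 2.17-fold and 1.66-fold higher. Ifnb1, which encodes interferon beta, had 3 counts over the 3 AAV libraries and 1 over the 6 dye libraries, and at most 2 in any library, too few for a fold.

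Inflammatory and immediate early genes had medians above 0. No member was called against both dyes together by edgeR on all 24 libraries, with the low-count filter and no trends removed. Egr2 was called against Di-2-ANEPEQ alone, as given above. Against both dyes Ccl3 was called in the fit of the 9 libraries only (adjusted p 0.0418), Klf6 by DESeq2 (adjusted p 0.0164) and Egr2 with the length and GC trends removed (adjusted p 0.0370). Of 33 inflammatory genes 31 passed the filter. The median log2 fold change was 0.06, made of 0.01 against Fura-2 and 0.09 against Di-2-ANEPEQ. At a nominal p under 0.05, 7 were higher and 1 lower, where 5.86% and 5.17% of all genes were. Ccl3, a chemokine for monocytes, stood at 382, 382 and 405 CPM in AAV, 370.4, 332 and 337 in Fura-2 and 367, 315 and 309.7 in Di-2-ANEPEQ. AAV was above every dye library, by 0.20 ± 0.06 (edgeR adjusted p 0.200). Nfkbia, the NF-kB inhibitor that NF-kB itself induces, stood at 122, 123 and 121 CPM in AAV, 117, 111 and 117 in Fura-2 and 112, 111 and 112 in Di-2-ANEPEQ. It also did not overlap, at 0.11 ± 0.04 (edgeR adjusted p 0.320). Tnf stood at 37.1, 34.7 and 35.7 CPM in AAV, 34.3, 30.9 and 36.1 in Fura-2, 33.5, 32.2 and 30.2 in Di-2-ANEPEQ, with 37.0, 35.1 and 34.6 in Control, so that AAV overlapped Fura-2 and Control. Its log2 fold change was 0.12 ± 0.05 (edgeR adjusted p 0.327), and that of Il1b 0.20 ± 0.08 (adjusted p 0.366). Cxcl2 differed by 0.07 from Fura-2 and 0.39 from Di-2-ANEPEQ, and Ptgs2 by 0.04 and 0.21.

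Of 41 immediate early genes 40 passed the filter, and 22 of the 40 lay above 0. At a nominal p under 0.05, 9 were higher and 0 lower, where 5.86% and 5.17% of all genes were. The median was 0.04 against both dyes, −0.01 against Fura-2 and 0.07 against Di-2-ANEPEQ. The 9 were Egr2, Klf6, Rgs2, Zfp36l1, Myc, Klf10, Zfp36, Atf3 and Jun. Klf6, a zinc finger transcription factor, stood at 184, 186 and 184 CPM in AAV, 176, 172 and 170.1 in Fura-2 and 173, 166 and 169 in Di-2-ANEPEQ. Its AAV libraries were all above the dyes, by 0.11 ± 0.03 (edgeR adjusted p 0.171). Zfp36, which encodes an mRNA-destabilising protein, differed by 0.02 from Fura-2 and 0.22 from Di-2-ANEPEQ. Egr1 had at most 2 counts in any of the 9 libraries and was not tested.

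**Figure D4:**
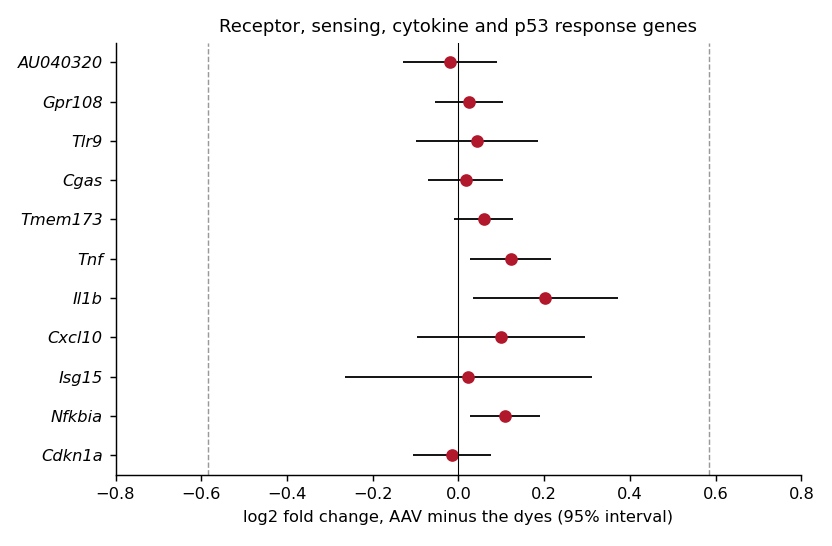
Log2 fold change of AAV minus the dyes with its 95% interval (horizontal axis) for 11 genes of AAV entry, sensing, inflammation and the p53 response, with dashed lines at 1.5-fold. All 11 intervals lie within the dashed lines, and those of Nfkbia, Tnf and Il1b lie above 0.

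The p53 and DNA repair genes held no call against both dyes together by edgeR on all 24 libraries with the low-count filter. Pmaip1, as given above, was higher against Di-2-ANEPEQ alone and against Control. It was also called against both dyes by DESeq2 (adjusted p 0.0155), in the fit of the 9 libraries only (0.0395) and without the low-count filter. Of 27 p53 target genes 24 passed the filter, and the median was −0.01. At a nominal p under 0.05, 4 were higher (Pmaip1, Trp53inp1, Btg2 and Rrm2b) and 1 lower (Ddb2). Of all genes 5.86% were higher and 5.17% lower at that p. Cdkn1a, the cell cycle inhibitor p21, stood at 68.3, 67.4 and 60.6 CPM in AAV, 67.9, 69.3 and 68.4 in Fura-2 and 64.5, 62.4 and 64.8 in Di-2-ANEPEQ. The groups overlapped, at −0.02 (−0.11 to 0.08). All 26 DNA damage sensing and repair genes passed the filter, 1 was higher and 0 lower at a nominal p under 0.05, and all 26 intervals lay within 1.5-fold. That 1 was Chek1, a checkpoint kinase, at 0.10 ± 0.05 (edgeR adjusted p 0.393).

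Splicing and chromatin regulators lay slightly above 0. Over all genes tested 6483 of 13116 were above 0, with a median of −0.001. At a nominal p under 0.05, 5.86% of all genes were higher and 5.17% lower. The median of all genes was 0.04 in the lowest of 5 bins of GC content and 0.02 in the highest of 5 bins of exonic length. The part of these trends in the list medians was not tested. Of 32 splicing regulators 25 were above 0 and 6 were higher at a nominal p under 0.05, with a median of 0.04, led by Tra2b at 0.10 ± 0.03 (edgeR adjusted p 0.274). Of 32 chromatin regulators 28 were above 0, 2 were higher at that p, and the median was also 0.04, led by Chd1 at 0.11 ± 0.03 (adjusted p 0.217). Of 40 calcium handling genes, a list that bears on a calcium dye as reference, 31 were above 0, with a median of 0.03. At a nominal p under 0.05, 4 of them were higher and 2 lower. The lead was Atp2b1, a plasma membrane calcium pump, at 0.10 ± 0.04 (adjusted p 0.294). Of 16 heat shock genes tested 13 were above 0, with a median of 0.03, and Chordc1, a co-chaperone of HSP90, led with 0.13 ± 0.04 (adjusted p 0.227). DESeq2 called Hsp90aa1 (adjusted p 0.0295). That gene stood at 2890, 2806 and 2852 CPM in AAV and 2589 to 2750 in the dyes, and differed by 0.10 ± 0.03 (edgeR adjusted p 0.251). Against Control it was also higher in AAV (0.14, edgeR adjusted p 0.0196).

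Replication-dependent histone genes were the list farthest below 0. Of 46 tested 33 lay below 0, and 2 were lower at a nominal p under 0.05, where 5.17% of all genes were. The median was −0.10. It was −0.21 against Fura-2, −0.01 against Di-2-ANEPEQ and 0.34 for Fura-2 against Di-2-ANEPEQ. These messages mostly lack a poly-A tail, so that poly-A libraries hold them unevenly, and 9 of the 46 intervals lay within 1.5-fold. Hist1h1c, a linker histone with the smallest p of the list, differed by −0.16 ± 0.04 (edgeR adjusted p 0.193). Gm42418, given above, was also highest in Fura-2; its part in this was not tested.

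The other lists held medians between −0.01 and 0.02, with no call by edgeR on all 24 libraries with the low-count filter. DESeq2 called Lamp2. Of the genes named here for these lists, Lamp2, Neat1 and Zfp326 were called without that filter. At a nominal p under 0.05, 5.86% of all genes were higher and 5.17% lower. Cell cycle genes had 2 higher and 3 lower of 42 at that p (lead Mcm5, −0.09). Lysosome and autophagy genes had 2 and 0 of 36 (Lamp2, 0.13), and glycolysis and HIF-1 targets 1 and 2 of 29 (P4ha2, −0.16). The integrated stress and unfolded protein response list had 3 and 4 of 29 (Phgdh, −0.08), NRF2 targets and metallothioneins 0 and 1 of 20 (Taldo1, −0.07), and the actin and tubulin cytoskeleton 4 and 2 of 30 (Arpc5, 0.10). Cytosolic ribosomal proteins had 2 and 0 of 83 (Rpl21, 0.09), noncoding RNA hosts 0 and 2 of 17 (Neat1, −0.18), and zinc finger genes named Zfp 15 and 9 of 291 (Zfp326, 0.22). The lead of the nuclear-encoded oxidative phosphorylation genes was Cyc1, at −0.11.

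**Figure D5:**
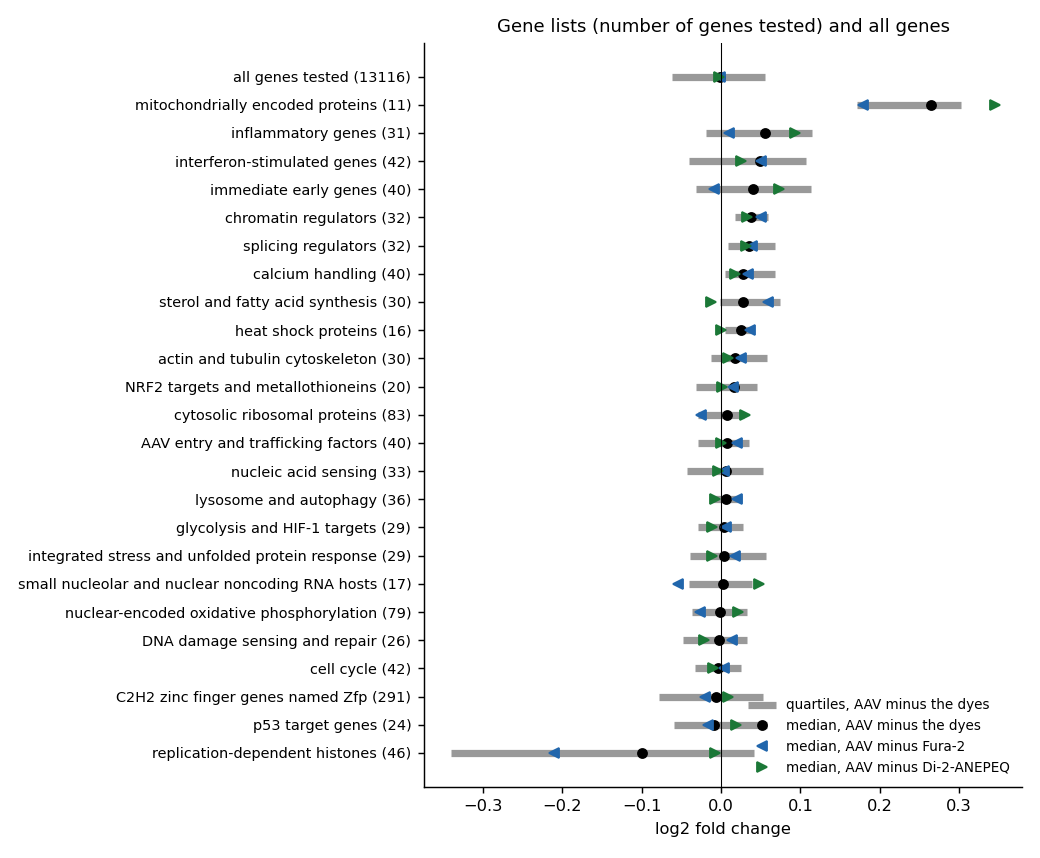
Median log2 fold change (horizontal axis) of each gene list and of all genes tested (vertical axis, number of genes in brackets) for AAV minus the dyes (black, with grey bars from the lower to the upper quartile), AAV minus Fura-2 (blue) and AAV minus Di-2-ANEPEQ (green), which share the AAV libraries. The mitochondrially encoded genes have the highest median (0.26) and the replication-dependent histones the lowest (−0.10).

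Against Control the same AAV libraries gave 656 called genes (5.00% of the genes tested), 241 higher and 415 lower, and the same genes were then read against the dyes. They were chosen on the Control comparison, and both comparisons share the AAV libraries. The 241 had a median log2 fold change of 0.18 against Control and 0.08 against the dyes, and the 415 had −0.24 and −0.07. Zbtb4, a zinc finger repressor, stood at 10.5, 10.5 and 10.8 CPM in AAV, 10.4, 10.7 and 10.7 in Fura-2 and 8.78, 10.1 and 11.4 in Di-2-ANEPEQ, while Control held 8.08, 7.45 and 7.96. It was higher in AAV than in Control by edgeR (0.44, adjusted p 0.00494) and differed from the dyes by 0.04 (−0.11 to 0.19). S100a4, a calcium-binding protein, averaged 6.70 ± 0.734 CPM in AAV, 8.34 ± 1.04 in Fura-2, 8.32 ± 1.05 in Di-2-ANEPEQ and 11.6 ± 1.197 in Control. It was lower in AAV than in Control (−0.79, edgeR adjusted p 0.000323), and against the dyes the difference was −0.31 ± 0.11 (adjusted p 0.311).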

How the data were processed

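Poly-A RNA of 24 SIM-A9 libraries was measured. The deposited table holds raw counts per gene, and per the submitters' processing notes reads were aligned with STAR 2.5.4b to GRCm38.p6. The counter, its strand setting and the annotation release are not given in the sources used here. Of 54838 gene identifiers 54809 were matched without version to GENCODE M21, used for names and positions. Genes were filtered with filterByExpr, scaled by TMM factors and fitted with edgeR 4.0.16 (R 4.3.3, glmQLFit and glmQLFTest, two-sided) over all 24 libraries with a mean per group. The comparison was AAV minus 0.5 of each dye group, with Benjamini-Hochberg adjustment over 13116 genes and calls at 0.05. SEs were computed from the F statistic, and intervals are at 95%. Depth and a biological coefficient of variation of 4.12% set the precision. Replicate pairs differed by 2.69 to 8.81 times the counting noise (chi-square per degree of freedom, 9 pairs). Alternatives, DESeq2 1.42.0 and trends fitted with mgcv 1.9.3 among them, are given at the end, and scripts were tested on simulated counts. The members and gene lists were chosen with earlier results of these data known. Named genes were to be the 12 highest and 12 lowest called protein-coding genes with at least 5 CPM and no overlap (there were 0), up to 4 called members of each of 24 lists or else the member with the smallest p, and AU040320, Gpr108, Tlr9, Cgas, Tmem173, Tnf, Il1b, Cxcl10, Isg15, Ifnb1, Nfkbia and Cdkn1a. Other genes named were chosen after their values were seen. 1 gene is not reported here.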

Additional observations from a re-analysis of the deposited data

How the results depend on the processing

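Counts of called genes depended on the processing. In AAV against the dyes, 0 genes were called by edgeR, and 76 without the low-count filter, 19 in the fit of the 9 libraries only, 44 with DESeq2's Wald test and 11 after removal of the length and GC trends. AAV against Fura-2 gave 1 call, and 46, 10, 19 and 5 under these same 4 settings. AAV against Di-2-ANEPEQ gave 8, and 77 without the filter, 30 in the 9 libraries and 26 with DESeq2. Fura-2 against Di-2-ANEPEQ gave 0, and 67, 14 and 1. The cause of these differences was not tested. DESeq2 size factors, upper-quartile factors, a mean of at least 50 counts and the 6 dye libraries as 1 group left AAV against the dyes at 0. Leaving out 1 library at a time gave 0 to 4 calls in AAV against the dyes (2 without AAV replicate 2, 1 without Di-2-ANEPEQ replicate 1, 4 without Di-2-ANEPEQ replicate 3, 3 without Fura-2 replicate 3), 0 to 1 against Fura-2, 0 to 35 against Di-2-ANEPEQ and 0 to 1 between the dyes (1 without Fura-2 replicate 3). At a nominal p under 0.05, 769 genes were higher and 678 lower with TMM factors, 638 and 828 with upper-quartile factors, 852 and 601 with DESeq2 size factors, and 995 and 473 after removal of length and GC trends. Same-numbered libraries of different groups deviated together by r = −0.01 to 0.08 over 9 pairs, so the numbers were not taken to pair them. With the replicate number as a block the counts were 0 against the dyes, 11 against Di-2-ANEPEQ, 1 against Fura-2 and 0 between the dyes.

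Of 1302 values of the 74 named genes under other settings, 1200 kept their sign and side of the threshold, 92 passed it and 10 changed sign. With length and GC trends removed, AU040320 stood at 0.00292 and Cdkn1a at 0.0194. Leaving out 1 library at a time, log2 fold changes ranged from −0.0774 (without Di-2-ANEPEQ replicate 1) to 0.130 for Isg15, which was −0.0601 without AAV replicate 2. They ranged from −0.0263 (without AAV replicate 1) to 0.0431 for Cgas, which was −0.000519 without Fura-2 replicate 1, and from −0.0118 (without AAV replicate 3) to 0.114 for Tlr9. The ranges were −0.00975 (without Di-2-ANEPEQ replicate 1) to 0.0884 for Zbtb4, −0.0467 to 0.0394 (without AAV replicate 3) for Cdkn1a, and −0.0566 (without AAV replicate 1) to 0.0859 for mt-Co3. The median of the mitochondrially encoded genes ranged from 0.18, without AAV replicate 1, to 0.29, without AAV replicate 2.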
